A study of Mus musculus with 4 samples.

Results

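Genes whose proteins microglia carry at their surface or secrete were followed in CD45+ cells of the mouse spinal cord, from the uninjured cord to 60 days after contusion injury (60 dpi). The 7 members, taken from a list of microglia genes, were Tmem119, Cx3cr1, Siglech, Selplg, Fcrls, Olfml3 and Sparc, 7 of the 39066 genes counted. In microglia, Selplg was 2.60-fold lower at 7 dpi than in the uninjured cord and 2.86-fold lower at 60 dpi. Cx3cr1 was 1.87-fold and 2.34-fold lower. Fcrls was 3.11-fold higher at 7 dpi, and Sparc was higher at 7 dpi and lower at 60 dpi.

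The animals were adult female Swiss Webster mice, either uninjured and untreated or with a moderate contusion at spinal level T9. At each stage, cord blocks without meninges were pooled from several mice that had not been perfused. CD45hi and CD45lo cells of low size and granularity were sorted, and single cells were sequenced in ICell8 nanowells with a SMART-seq 3′ kit. Each condition was 1 library with no replicates, so a difference between conditions could not be tested, and the 3 dpi cells were not analysed here. A CD45 sort leaves out cells with no CD45, and the size gate sets which leukocytes were seen.

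The libraries held 426 (uninjured), 454 (7 dpi) and 945 (60 dpi) cells, with 306721154, 365066887 and 382779731 reads and medians of 554836, 663734 and 287134 reads per cell. Cell barcodes were shared by 43 cells of the uninjured and 7 dpi libraries, 82 of the uninjured and 60 dpi libraries and 102 of the 7 and 60 dpi libraries. The 7 dpi library went against its female label, and the 60 dpi library did so in part. Xist, the RNA of the inactive X chromosome, had a read in 337 uninjured cells, 0 cells at 7 dpi and 543 cells at 60 dpi, and a Y-linked gene (Ddx3y, Eif2s3y, Kdm5d or Uty) in 0, 352 and 139 cells. Each comparison with 7 dpi therefore cannot be told apart from a difference of sex. At 60 dpi 88 of the 139 cells had reads of both. The comparison of 60 dpi with the uninjured library may thus also hold a difference of sex, which was not tested.

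Microglia are the resident macrophages of the central nervous system. In the healthy cord they carry a set of receptors and secreted proteins that depends on TGF-β signalling and on factors such as PU.1, and levels of many of these genes are known to be lower after injury. Cx3cr1 is the receptor of fractalkine (Cx3cl1), which neurons make, and Siglech is a sialic acid-binding lectin that signals through the adaptor DAP12, encoded by Tyrobp. Selplg encodes PSGL-1, the ligand of P-selectin. Fcrls is an Fc receptor-like protein with a scavenger receptor domain. Tmem119 is a single-pass membrane protein widely used as a microglia marker. Olfml3 is a secreted glycoprotein of the olfactomedin family, and Sparc is a secreted matricellular protein that binds collagen.

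All 7 are protein-coding genes of GRCm38 (GENCODE vM21 annotation). Fcrls (chromosome 3, 87250758–87263738) and Olfml3 (chromosome 3, 103722222–103738001) lie on the minus strand. So do Tmem119 (chromosome 5, 113793729–113800516) and Selplg (chromosome 5, 113818536–113832644), which are neighbours 18019 bases apart. Siglech (chromosome 7, 55768178–55778925) lies on the plus strand, and Cx3cr1 (chromosome 9, 119901616–120069879) and Sparc (chromosome 11, 55394500–55423183) on the minus strand. The annotated span of Cx3cr1 overlaps Gorasp1, Csrnp1 and Xirp1 on its own strand, and reads in the shared stretches could go to either gene. On the other strand it overlaps Wdr48 and Ttc21a among others. The highest of the overlapping genes counted in microglia, Csrnp1, was at 41.6 CPM in uninjured, 20.3 CPM in 7 dpi and 64.8 CPM in 60 dpi cells. Cx3cr1 itself was at 1953, 1043 and 834 CPM. The other 6 members overlap no gene.

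RefSeq promoter windows, 250 bases before to 50 after the start (GRCm38.p6), matched 5 of the 7 members, Tmem119 and Selplg not being among them. The 3 windows printed belong to members whose levels went different ways after injury: Fcrls was higher at 7 dpi, Cx3cr1 was lower at both times, and Sparc was higher and then lower. They are chr3:87263475-87263774 (Fcrls), chr9:120068247-120068546 (Cx3cr1) and chr11:55420031-55420330 (Sparc), all minus strand and written 5′ to 3′ along the gene. Capitals mark matches, on either strand, to letters searched for PU.1 (GAGGAAG), SMAD (CAGACA), the MARE element (TGCTGAC) and the TATA box (TATAAA).
Fcrls: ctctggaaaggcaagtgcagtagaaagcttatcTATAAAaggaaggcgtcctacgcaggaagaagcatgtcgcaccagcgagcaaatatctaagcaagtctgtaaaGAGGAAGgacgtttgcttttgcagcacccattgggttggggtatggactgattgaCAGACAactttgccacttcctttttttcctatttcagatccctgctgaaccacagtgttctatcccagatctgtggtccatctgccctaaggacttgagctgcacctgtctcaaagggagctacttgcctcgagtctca
Cx3cr1: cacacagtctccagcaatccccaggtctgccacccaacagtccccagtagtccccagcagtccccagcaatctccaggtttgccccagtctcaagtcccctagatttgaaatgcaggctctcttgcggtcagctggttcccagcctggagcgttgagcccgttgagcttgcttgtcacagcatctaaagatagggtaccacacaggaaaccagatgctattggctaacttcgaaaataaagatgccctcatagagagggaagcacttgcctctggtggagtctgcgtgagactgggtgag
Sparc: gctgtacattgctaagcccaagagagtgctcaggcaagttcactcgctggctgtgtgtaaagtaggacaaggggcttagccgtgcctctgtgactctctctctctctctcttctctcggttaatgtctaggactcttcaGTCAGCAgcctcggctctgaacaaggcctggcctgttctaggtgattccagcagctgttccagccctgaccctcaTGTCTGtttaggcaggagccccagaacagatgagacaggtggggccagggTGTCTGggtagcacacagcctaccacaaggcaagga

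The Fcrls window held TATAAA 217 bases, GAGGAAG 144 bases and CAGACA 89 bases before the start, none of which overlap. The Sparc window held CAGACA on the opposite strand at 36 bases before the start and again after it, and TGCTGAC on the opposite strand at 111 bases. None of the letters matched in the windows of Cx3cr1 and Olfml3, and Siglech held CAGACA once, on the opposite strand at 75 bases. The composite ETS-IRF letters GGAANNGAA and the AP-1 letters TGANTCA matched 0 of the 5. Among all 32851 windows of this length, CAGACA was found in 21.04%, GAGGAAG in 13.6%, TATAAA in 13.6%, GGAANNGAA in 8.24%, TGANTCA in 7.81% and TGCTGAC in 4.67%. A match of letters is a description of the window and not a bound site.

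To keep the members out of the definition of the cells, microglia were taken as cells with at least 2000 CPM (reads of a gene scaled to the total of the cell or class) of C1qa, C1qb and C1qc together and under 500 CPM of Cd79a and Cd79b. The C1q genes encode complement C1q, which microglia and other tissue macrophages make, and Cd79a and Cd79b encode the B cell receptor's signalling chains. B cells had at least 500 CPM of the Cd79 pair and under 2000 CPM of C1q. T cells had at least 300 CPM of Cd3d, Cd3g and Trbc2 and met neither limit. By these limits 303 uninjured cells (71.1%, exact 95% interval 66.6–75.4%), 324 cells at 7 dpi (71.4%, 67.0–75.5%) and 125 cells at 60 dpi (13.2%, 11.1–15.6%) were microglia. B cells numbered 27, 31 and 483, and T cells 25, 9 and 106. Cells with both C1q and Cd79 (5, 39 and 79) or with none of the gates (66, 51 and 152) were left out of the classes. The median depth of microglia was 592845, 614910 and 270591 reads.

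The class had the markers of its name. A list of 9 microglia markers, P2ry12 and Csf1r among them, summed to 32344 CPM in uninjured, 24192 CPM in 7 dpi and 15585 CPM in 60 dpi microglia, with 9 of 9 at 100 CPM or more in each. Other lists moved with the stage inside the class. Granulocyte genes (6 of 6 detected, S100a8 and Camp among them) summed to 40.0, 5771 and 1170 CPM, and erythroid genes (4 of 4) to 129, 5835 and 1994 CPM. B cell genes (8 of the 9 listed were in the table) came to 171, 220 and 1224 CPM, with a median over single microglia of 7.61, 12.2 and 769.7 CPM. Oligodendrocyte genes summed to 174, 80.1 and 1839 CPM, of which Mbp made 1475 CPM at 60 dpi, while its fellow Mog was at 0 in the first pair of libraries. NK genes came to 4.67, 1140 and 357 CPM and T cell genes to 64.5, 177 and 321 CPM. Border macrophage genes came to 24.8, 209 and 277 CPM, and monocyte genes to 5.68, 215 and 129.8 CPM. The part these reads have in the differences between libraries was not tested, except for the cells left out as described with the ratios. In the T class at 7 dpi, only 9 cells, granulocyte genes reached 118447 CPM in the sum and 5249 CPM in the median cell. T cell genes summed to 3603 CPM there, with 2664 CPM in the median cell and 6 of 8 genes at 100 CPM or more. Cd3d stood at 1550 CPM and Cd3g at 23.5 CPM. The values of this class below therefore rest on few cells and cannot be read as those of T cells alone.

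Selplg had the lowest ratio to the uninjured library of the 7 members at both times. Its level in the summed reads of microglia was 2318 CPM in the uninjured, 892 CPM in the 7 dpi and 809.7 CPM in the 60 dpi library. The median over single cells went from 2133 CPM (quartiles 1317 and 3302) to 670.1 CPM (199 and 1462) and 422 CPM (14.2 and 1336). The upper quartile at 7 dpi thus lay just inside the uninjured range, and most uninjured cells were above most cells of both later libraries. The share of microglia at 100 CPM or more, a level chosen after the values had been seen, was 96.0% (exact 95% interval 93.2–97.9%), 80.6% (75.8–84.7%) and 65.6% (56.6–73.9%).

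The genes that make the P-selectin ligand functional were read out beside it. Fut7, which adds its fucose, was at 0, 1.11 and 1.48 CPM in microglia. Gcnt1, which starts the branched glycan, was at 222, 193 and 88.2 CPM, and Tpst2, which sulphates its tyrosines, at 112, 139 and 131 CPM. Tpst1 stood at 9.51, 5.19 and 5.15 CPM. Selp, the P-selectin gene itself, did not exceed 1.07 CPM in these microglia, and Sele was at 0 CPM.

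Cx3cr1 was lower in both later libraries as well. Its level was 1953 CPM in uninjured, 1043 CPM in 7 dpi and 834 CPM in 60 dpi microglia. Single cells had medians of 1641 CPM (quartiles 752 and 3042), 801 CPM (189 and 1689) and 399 CPM. At 60 dpi the lower quartile of single cells was close to 0 while the upper quartile, 1597 CPM, was near that at 7 dpi. Cells at 100 CPM or more made up 91.7% (88.1–94.6%), 79.6% (74.8–83.9%) and 60.8% (51.7–69.4%). Its ligand Cx3cl1 was found with 1, 7 and 0 reads in microglia.

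Tmem119, the marker gene, was at 753 CPM in uninjured, 479.6 CPM in 7 dpi and 415 CPM in 60 dpi microglia. Medians over cells were 571 CPM (quartiles 270 and 1103), 318 CPM (70.7 and 760.1) and 139.8 CPM (0 and 767). The upper quartiles of the later libraries were close to each other, and the lower quartile reached 0 at 60 dpi. The share at 100 CPM or more was 88.4% (84.3–91.8%), 71.6% (66.4–76.5%) and 52.0% (42.9–61.0%).

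Siglech was uneven from cell to cell. It was at 456 CPM, 401 CPM and 257 CPM in the 3 libraries, but the medians over cells were 43.4 CPM (quartiles 0.786 and 748), 12.4 CPM (0.804 and 359.8) and 0 CPM (0 and 49.9). So its summed level came from a minority of cells at every stage, with 44.2% (38.6–50.01%), 38.9% (33.6–44.4%) and 24.0% (16.8–32.5%) at 100 CPM or more. Tyrobp, whose product carries its signal, was found at 1783, 2110 and 1327 CPM.

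Fcrls had the highest ratio to the uninjured library of the 7 members at both times. It was at 140 CPM in uninjured, 439 CPM in 7 dpi and 214 CPM in 60 dpi microglia. The median cell had 0 CPM (upper quartile 3.97), 60.8 CPM (2.91 and 616) and 0 CPM (upper quartile 51.7). The share of cells at 100 CPM or more was 15.8% (11.9–20.4%), 46.3% (40.8–51.9%) and 22.4% (15.4–30.7%), so more cells carried it at 7 dpi. At 60 dpi a single cell gave 29.6% of its reads.

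The secreted members went apart. Sparc was at 1173 CPM in uninjured, 1577 CPM in 7 dpi and 759 CPM in 60 dpi microglia, with medians over cells of 938 CPM (quartiles 276 and 1675), 1326 CPM (376 and 2395) and 265 CPM (7.24 and 1206). The 7 dpi cells were the highest and the 60 dpi cells the lowest, with quartile ranges that overlap in all 3 libraries. Its share at 100 CPM or more was 81.5% (76.7–85.7%), 86.7% (82.5–90.2%) and 57.6% (48.4–66.4%). Olfml3 was low, at 45.5, 46.3 and 52.4 CPM, with 10.6% (7.34–14.6%), 9.26% (6.33–12.9%) and 8% (3.90–14.2%) of cells at 100 CPM or more. At 60 dpi 1 cell gave 40.2% of the Olfml3 reads. Quartile ranges of neighbouring libraries overlapped for every member, and the spread between mice or libraries is unknown.

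**Figure D1:**
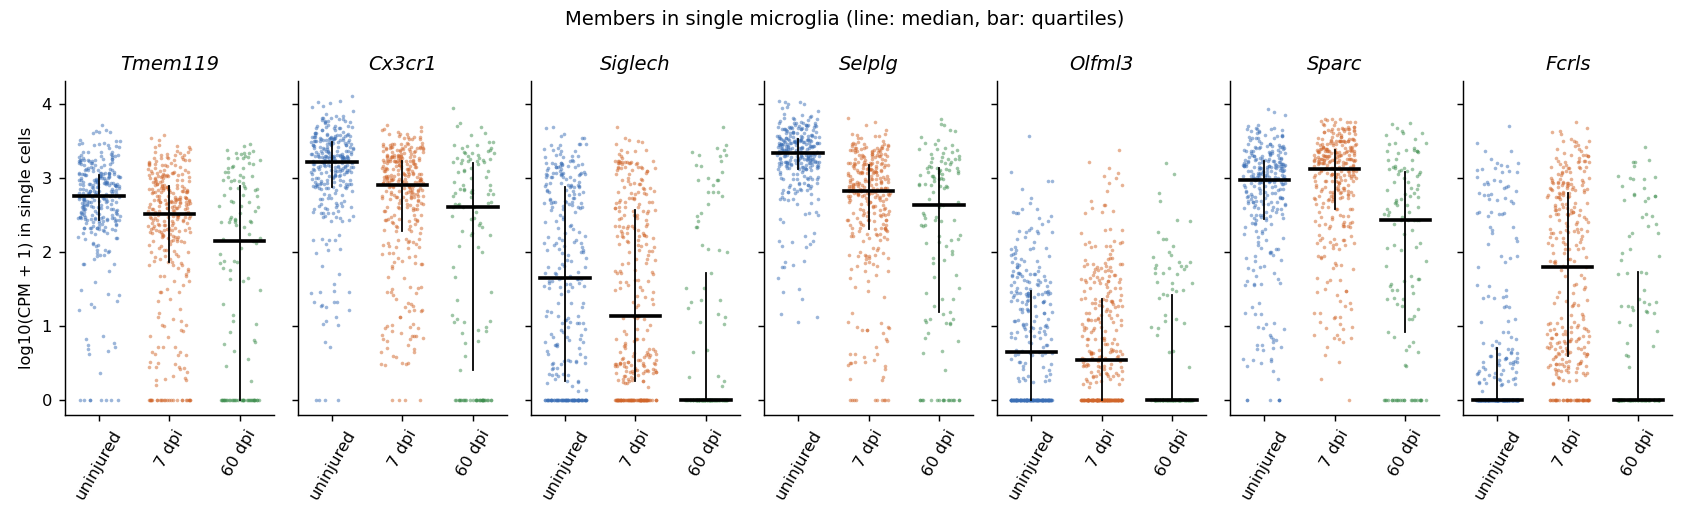
Each point is 1 microglia cell (303 uninjured, 324 at 7 dpi, 125 at 60 dpi), plotted as log10(CPM + 1) of a member against library, with a line at the median and a bar between the quartiles. Selplg, Cx3cr1 and Tmem119 have their highest median in the uninjured library, and Sparc and Fcrls at 7 dpi.

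Ratios between libraries are log2 ratios of CPM + 1 in summed reads, and a change of at least 2-fold was counted. At 7 dpi over uninjured the members gave −1.38 (Selplg), −0.90 (Cx3cr1), −0.65 (Tmem119), −0.18 (Siglech), 0.02 (Olfml3), 0.43 (Sparc) and 1.64 (Fcrls). Past 2-fold were 1 lower member, Selplg, and 1 higher, Fcrls. Of 2548 genes that passed the filter (50 CPM in either library and a read in 25% of its cells), 11.6% were past 2-fold lower and 10.1% higher, so these member counts are near the background. All members but Olfml3 passed the filter. The median of the 7 ratios was −0.18, beside −0.09 over the tested genes.

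At 60 dpi over uninjured the ratios were −1.52 (Selplg), −1.23 (Cx3cr1), −0.86 (Tmem119), −0.83 (Siglech), −0.63 (Sparc), 0.20 (Olfml3) and 0.60 (Fcrls). Cx3cr1 and Selplg were past 2-fold lower, 2 of 7, and 0 of 7 were past it higher. Of the 2552 tested genes 13.9% were past 2-fold lower and 20.1% higher. The members had a median of −0.83 and the tested genes one of 0.13. All 7 members passed the filter. Both comparisons share the uninjured library.

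Between 60 and 7 dpi, Sparc (−1.05) and Fcrls (−1.03) were past 2-fold lower, 2 of 7, and 0 of 7 higher. The others lay at −0.64 (Siglech), −0.32 (Cx3cr1), −0.21 (Tmem119), −0.14 (Selplg) and 0.18 (Olfml3). Of 2588 tested genes, 7.88% were past 2-fold lower and 13.4% higher, with a median of 0.18 against −0.32 for the 7 members. In summed reads Selplg, Cx3cr1 and Tmem119 were less far apart between 7 and 60 dpi than between the uninjured cord and 7 dpi. The medians over cells and the shares of cells at 100 CPM or more were also lower at 60 than at 7 dpi for all of these genes. The sign of the ratio held under 14 of 14 other settings for Cx3cr1, 12 for Selplg and 11 for Tmem119. With a C1q gate of 5000 CPM it was 0.18 for Tmem119 and 0.19 for Selplg. Fcrls and Sparc had their highest summed level at 7 dpi.

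The values with cells left out follow. Selplg was past 2-fold lower at both times under 14 of 14 other settings of gate, cells or scale, and Fcrls was past 2-fold higher at 7 dpi in 14 of 14 (log2 ratio 1.14 to 1.80). Cx3cr1 at 60 dpi was past it in 12 of 14, with a weakest value of −0.93 where cells with border macrophage or monocyte markers were left out. Without the microglia that had 300 CPM or more of B cell markers, 35 of the 125 cells at 60 dpi were left, the 60 dpi ratio of Fcrls was 1.49 and that of Olfml3 1.21. Without cells with a Y-linked read, 78 microglia were left at 7 dpi and 100 at 60 dpi. Fcrls was then at 1.14 at 7 dpi and −0.02 at 60 dpi, and Selplg at −1.14 at 7 dpi. Cells with no Y-linked read at 7 dpi also had no Xist read, so they do not stand for the other sex.

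**Figure D2:**
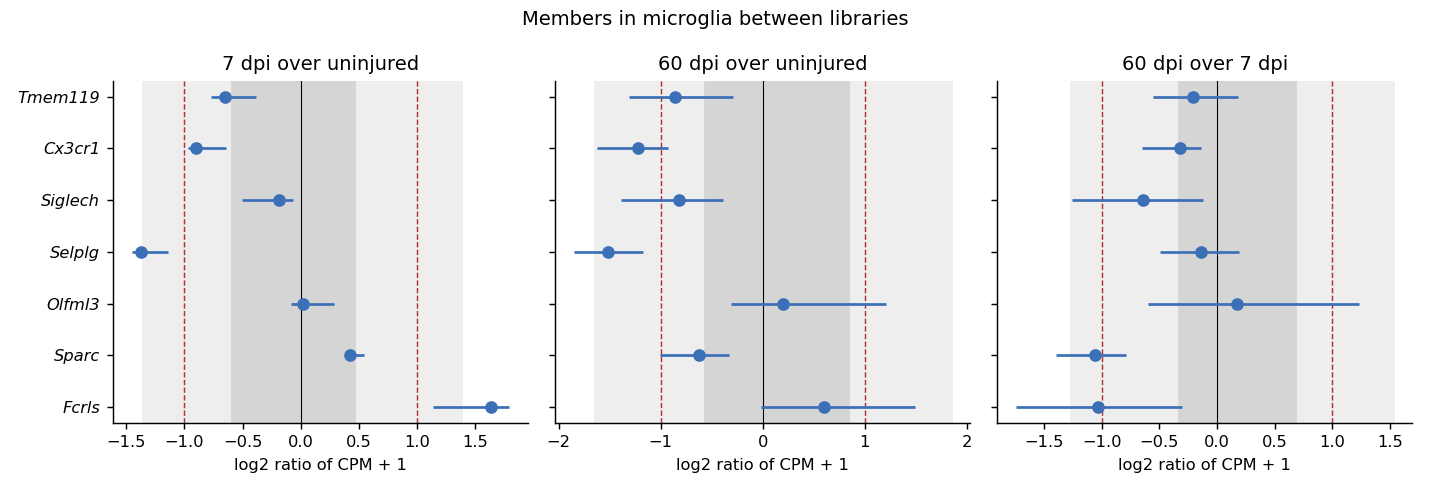
Points are log2 ratios of CPM + 1 of the 7 members in microglia for 3 pairs of libraries, and lines span the values under 14 other settings. Grey bands hold the middle 90 and 50 percent of tested genes and dashed lines mark 2-fold. Selplg and Fcrls lie past 2-fold at 7 dpi, Selplg and Cx3cr1 at 60 dpi, and the Olfml3 and Fcrls lines are the widest at 60 dpi.

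Among the 60 dpi microglia, the 67 cells with Xist and no Y-linked read and the 25 cells with a Y-linked read were set side by side. Of the 125 cells 87 had an Xist read, so most of the 25 had reads of both kinds and they are not a set of male cells. Cx3cr1 was at 1176 and 645 CPM, Tmem119 at 503 and 351 CPM, and Selplg at 934 and 782 CPM. Fcrls was at 168 and 311 CPM and Sparc at 759 and 792 CPM.

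A further 30 homeostatic microglia genes, a list chosen with results of these data known, were counted for comparison. At 7 dpi over uninjured, 25 were lower and 5 higher, 11 of 30 past 2-fold lower and 0 higher, with a median of −0.75. Among the 27 that passed the filter 8 were past it, beside 11.6% of all tested genes. The lowest were Adora3, an adenosine receptor that did not pass the filter (−3.11), Slc2a5, a fructose transporter (−3.02), and P2ry12, the ADP receptor of resting microglia (−1.77). The highest were the integrin Itgb5 (0.50) and the lipid receptor Trem2 (0.43). At 60 dpi 27 were lower and 3 higher, 16 past 2-fold lower and 0 higher, with a median of −1.03. Of the 27 that passed the filter 14 were past it, beside 13.9% of all tested genes. Slc2a5 (−3.57), Adora3 (−2.94) and P2ry12 (−2.19) were again the lowest, and Serpine2 (0.34) and Itgb5 (0.28) the highest. From 7 to 60 dpi 1 gene of 30, Trem2 (−1.13), was past 2-fold lower and 0 higher. Cd164 (−0.98) and Gpr34 (−0.96) followed it, and Ltc4s (0.61), Pros1 (0.36) and Crybb1 (0.28) were the highest. In all 3 comparisons the members' median lay above that of the 30 genes and below that of all tested genes.

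The 7 members had their highest levels in the microglia class of each library. Ordered over the 3 classes and 3 libraries, the 3 microglia levels took the first places for 7 of 7 members. All 7 were at least 2-fold higher in microglia than in B cells of the same library. Their log2 ratios were 2.86 to 6.06 (uninjured), 1.25 to 3.49 (7 dpi) and 2.498 to 3.42 (60 dpi). The filter was passed by 6, 6 and 7 of the members. Among the tested genes 27.4%, 20.5% and 13.9% were that much higher in microglia than in B cells. The members were taken from a list of microglia genes, so their higher level in this class was built in and is a description only.

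Reads in B cells were set against those of P2ry12, since free RNA can enter any nanowell. In uninjured B cells, Tmem119 was at 5.38% of its microglia level, Cx3cr1 at 1.45%, Siglech at 2.38% and Selplg at 7.77%, beside 8.07% for P2ry12. At 60 dpi the values were 9.10%, 10.2%, 17.4% and 17.2%, beside 12.2% for P2ry12. With a stricter gate on B cells, 139 cells at 60 dpi, Cx3cr1 was at 14.7%, Tmem119 at 9.33% and P2ry12 at 9.15%. Tmem119 and Cx3cr1 in B cells at 60 dpi were thus below P2ry12 by the first gate and above it by the stricter one. By the stricter gate a single cell gave 27.8% of the Tmem119 reads, 19.3% for Cx3cr1 and 14.9% for P2ry12. The small gap between Tmem119 and P2ry12 therefore leans on few cells. Siglech in B cells at 7 dpi reached 41.8% of its microglia level, 34.4% of it from 1 of 31 cells. A list of 5 plasmacytoid dendritic cell genes summed to 334 CPM in these B cells and 186 CPM in microglia at 7 dpi. Its medians over cells were 4.09 and 3.18 CPM. The part of such cells in the Siglech value was not tested.

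Selplg was also read in the T class. Its level there was 529.5 CPM in the uninjured library, with 33.1% of the reads from 1 cell, 325 CPM in the 9 cells at 7 dpi and 321 CPM at 60 dpi, or 22.8%, 36.4% and 39.6% of the microglia level. The class also held granulocyte genes, at 16519 CPM in the uninjured and 15505 CPM in the 60 dpi sum, with medians over cells of 5.03 and 934 CPM, and their part in these values was not tested. P2ry12 stood at 2.48%, 3.46% and 10.2% there. A stricter gate on T cells, with little C1q, left 14 uninjured and 28 cells at 60 dpi, with Selplg at 10.4% and 51.4% of the microglia level and P2ry12 at 0.328% and 9.82%. With it Tmem119 was at 7.84% and 1.21%, Cx3cr1 at 5.71% and 2.96%, and Siglech at 22.8% and 1.39%. In the uninjured library Siglech was therefore above Selplg, with 77.3% of its reads from 1 cell, and at 60 dpi Selplg was the highest of these. Selplg is known in T cells, which use PSGL-1 to roll on selectins. In the T class at 60 dpi, 55.7% of cells had 100 CPM or more of Selplg, beside 24.2% of B cells.

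**Figure D3:**
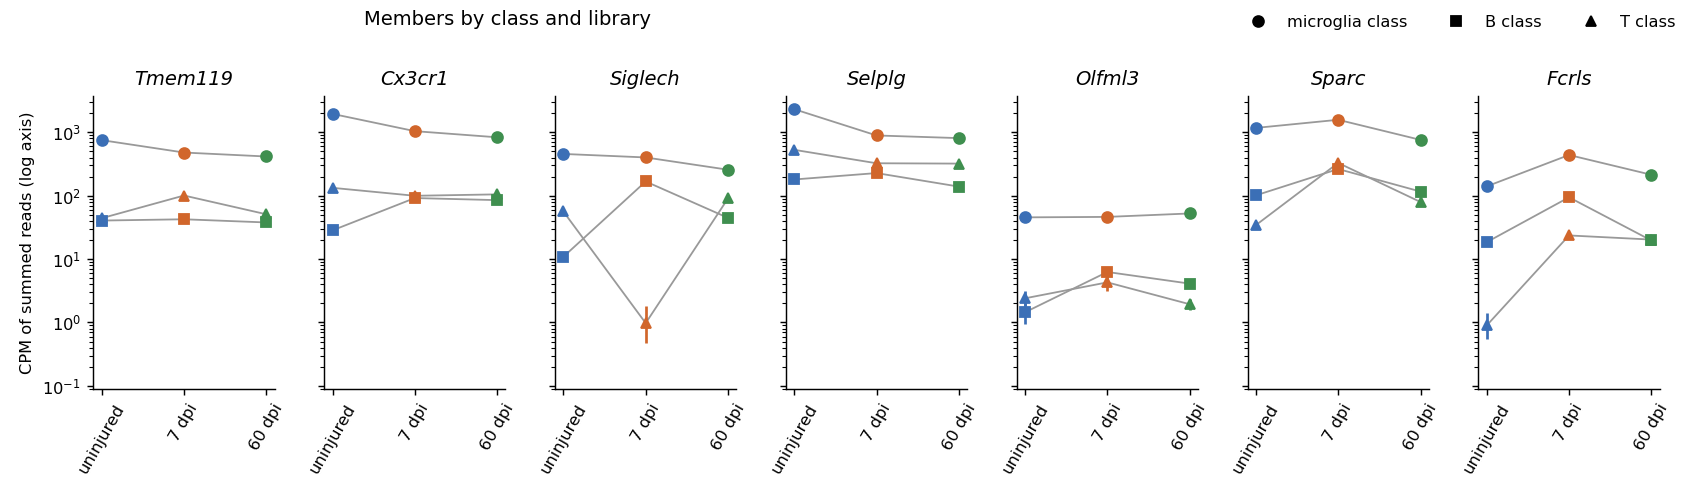
CPM of the summed reads of a class is shown on a log axis for each member, by library, for microglia (circles), B cells (squares) and T cells (triangles), with exact Poisson 95% intervals that cover counting error only. Microglia lie above B and T cells for every member and library, and Selplg in T cells lies above B cells in each library.

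Shares of cells with any read were compared after thinning each cell to 50000 reads. In microglia, Selplg had a read in 100% of uninjured, 89.4% of 7 dpi and 75.2% of 60 dpi cells, and in B cells in 59.3%, 54.8% and 47.5%. Cx3cr1 had one in 98.3%, 90.7% and 66.1% of microglia and in 40.7%, 45.2% and 36.4% of B cells. The values for Tmem119 were 93.6%, 82.0% and 60.3% in microglia and 29.6%, 32.3% and 18.4% in B cells. Fcrls had a read in 22.1%, 59.0% and 37.2% of microglia and in 22.2%, 19.4% and 16.3% of B cells, so at this depth the uninjured shares of both classes were alike, the B cell share resting on 6 of 27 cells. At 20000 reads they were 18.2% and 7.41%, at 100000 reads 26.3% and 19.2%, and unthinned 40.3% and 29.6%, and the summed level was 140 CPM in microglia and 18.5 CPM in B cells. Sparc had a read in 90.6%, 94.4% and 69.4% of microglia, Siglech in 59.5%, 50.6% and 29.8% and Olfml3 in 37.1%, 31.4% and 25.6%. In B cells these were 44.4%, 71.0% and 37.9% for Sparc, 18.5%, 29.0% and 14.2% for Siglech and 7.41%, 9.68% and 6.36% for Olfml3. Unthinned, Fcrls had a read in 40.3%, 87.0% and 44.0% of microglia, Selplg in 100%, 96.9% and 86.4%, Cx3cr1 in 98.7%, 98.8% and 75.2% and Tmem119 in 97.4%, 92.0% and 70.4%. Median depths of B cells were 578718, 1116890 and 284975 reads.

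**Figure D4:**
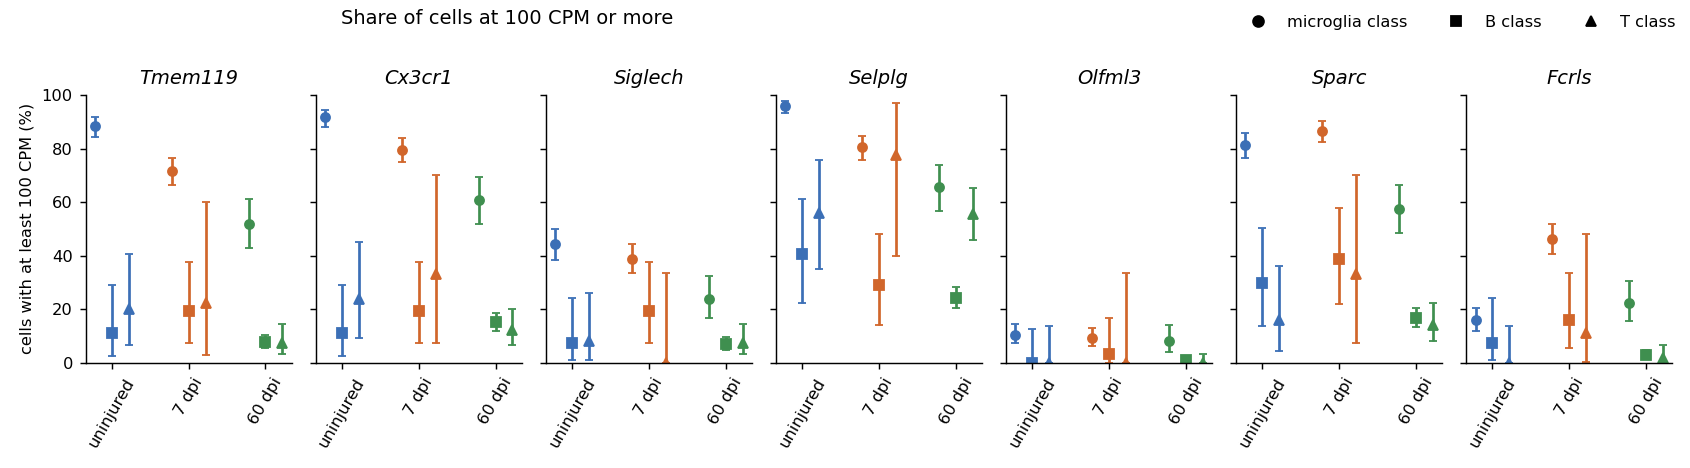
The percentage of cells with at least 100 CPM of each member is shown by library for microglia (circles), B cells (squares) and T cells (triangles), with exact Clopper-Pearson 95% intervals. For microglia, Selplg goes from 96.0% to 65.6% and Fcrls peaks at 46.3% at 7 dpi.

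Members were found together in single microglia. The median number of the 7 at 100 CPM or more was 4 in uninjured, 4 in 7 dpi and 3 in 60 dpi microglia. Cells with 5 or more made up 45.2% (39.5–51.0%), 45.7% (40.2–51.3%) and 20.8% (14.1–29.0%). None of the 7 reached that level in 0 of 303 uninjured microglia, 2 of 324 at 7 dpi and 14 of 125 at 60 dpi, or 11.2% (6.26–18.1%). After thinning, the medians of members with a read were 5, 5 and 4. In B cells 5 or more members at 100 CPM were found in 0 cells of each library, and in T cells in 0, 0 and 1.

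**Figure D5:**
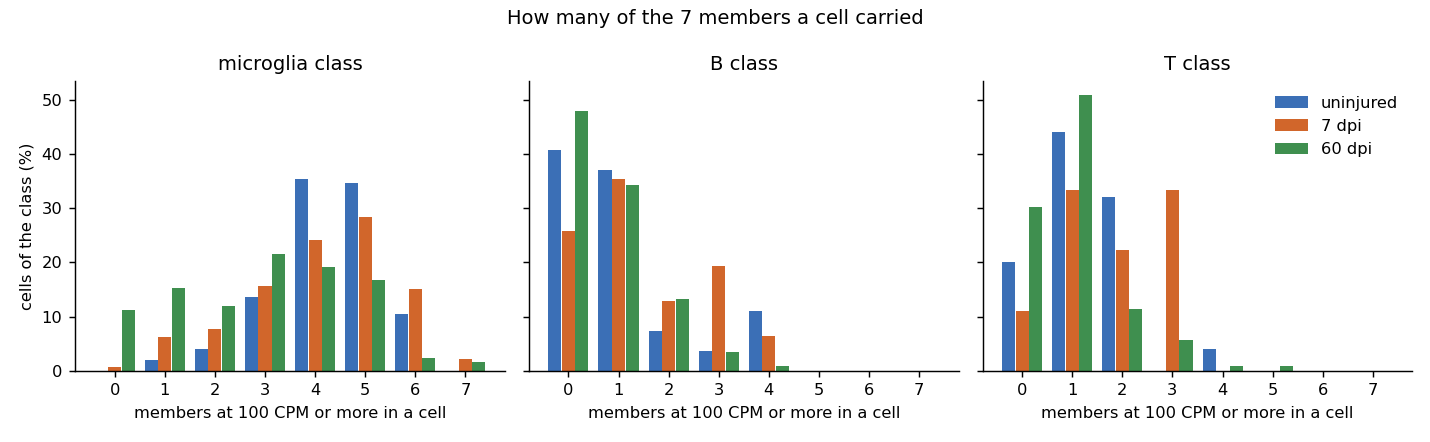
Bars give the percentage of cells of a class (microglia, B, T) with 0 to 7 members at 100 CPM or more, by library. Uninjured and 7 dpi microglia peak at 4 or 5 members, 60 dpi microglia are spread over 0 to 5, and B and T cells peak at 0 or 1, with the 9 T cells at 7 dpi as often at 3 as at 1.

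Over single microglia of a library, the members followed each other weakly. The 21 pairs had a median Spearman rho of 0.09 over uninjured, 0.16 over 7 dpi and 0.20 over 60 dpi cells. The highest pairs were Tmem119 with Selplg (0.27), Tmem119 with Sparc (0.29) and Cx3cr1 with Sparc (0.44), in that order of libraries. Pairs share the cell's depth and total, and rho of a member with depth lay between −0.12 and 0.20. As a description these are low values in sparse counts.

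Genes that followed the 7 members most closely were sought in both ways. Over the 9 class sums, among 6170 genes, the mean of the members had its highest Pearson r with Nfkbiz (0.984), C1qb (0.979), Rasa4 (0.972), Atf3 (0.967) and Med12l (0.961). C1qb was used to choose the cells, so its place is no result. Over single microglia, among 1896 genes, the genes with the highest rho in the lowest of the 3 libraries included P2ry12 (0.264), Lgmn (0.232), Ctsd (0.231) and Csf1r (0.227). Among the members, Olfml3 was the closest to the mean of the other 6 over the class sums (r = 0.97) and Siglech the farthest (0.65). The class sums share libraries and the gap between microglia and other cells.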

How the data were processed

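Single CD45+ cells of the uninjured, 7 dpi and 60 dpi mouse spinal cord were sequenced, and 3 libraries were analysed. The authors mapped reads to mm10 with STAR and deposited whole-number read counts per gene and cell, not normalized and without molecular identifiers. The gene annotation, treatment of strand and filters on cells are not given in the sources used here. Reads of multi-copy genes may be split between copies. All 1825 cells were kept, doublets were not called, and cells with both C1q and Cd79 were set aside. Of the table's columns 0 belonged to no library.

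Reads were added up per class and library and scaled to CPM. Ratios are log2 ratios of CPM + 1, which understate changes of low genes. With 1 library per condition there was no test. Intervals are 95% exact Poisson (at most ± 3.9% of a member's microglia level) or Clopper-Pearson and cover counting error only, since reads are not molecules. Thinning to 50000 reads left out 7, 2 and 27 cells. Gates, a filter of 50 CPM and 25% of cells, the scale and sets of cells left out were varied. Of these 14 settings, 2 (microglia with B cell markers left out, centring on the median of all tested genes) were chosen after seeing the data. The members and lists were chosen with earlier results of these data known. The text names the 7 members, the 3 highest and 3 lowest other homeostatic genes per comparison, the 5 genes most like the members by each measure, and fixed partner, gate, marker and sex-linked genes. Some genes these rules pick are not reported here. Calculations used Python 3.11.15 with numpy 2.4.6, scipy 1.17.1, pandas 2.3.3 and matplotlib 3.10.9, and were tested on simulated data. Coordinates are from GENCODE vM21 and promoters from RefSeq, both GRCm38, the same assembly as mm10.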

Additional observations from a re-analysis of the deposited data

Results flagged for a closer look

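Sparc went opposite ways in microglia at the 2 times after injury, with a log2 ratio over the uninjured library of 0.43 at 7 dpi and −0.63 at 60 dpi. Both ratios use the same uninjured library, there was 1 library per time, and the difference was not tested. The signs were the same under 14 of 14 other settings.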

How the results depend on the processing

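No paired analysis was possible because each condition was 1 library and the labels give no replicate numbers. No library could be left out for the same reason. The 7 dpi counts of members past 2-fold (1 lower, 1 higher) were the same under 14 of 14 settings. At 60 dpi over uninjured, the count past 2-fold lower (2) was 5 with a C1q gate of 1000 CPM, 4 with Cd79 under 100 CPM, and 1 with border macrophage or monocyte marker cells or with cells with a Y-linked read left out. The count higher was 2 in place of 0 with B marker cells left out, which kept 35 microglia at 60 dpi. At 60 over 7 dpi, the count lower (2) was 0 with a C1q gate of 5000 CPM and with B marker cells left out, and the count higher was then 1 in place of 0 with B marker cells left out. Cx3cr1 at 60 dpi ranged from −1.62 to −0.93, Sparc from −1.01 to −0.33 and Olfml3 from −0.31 to 1.21. The cause was not tested. With a filter of 10 CPM and 10% of cells, the genes past 2-fold were 1925 in place of 552 at 7 dpi, 2632 in place of 868 at 60 dpi and 2294 in place of 552 between them, and with no filter 4808, 6153 and 5635. Depth limits the low members most: Olfml3 and Fcrls at 60 dpi rest on few cells.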

Other observations

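Cells that met neither gate also carried the members. In the uninjured library the 66 cells with none of the gates had 1482 CPM of Selplg, 963.5 CPM of Cx3cr1 and 536 CPM of Tmem119, against 371, 113 and 60.2 CPM in the 152 such cells at 60 dpi. The markers of these cells differed too. Microglia markers summed to 16713 CPM in the uninjured and 5149 CPM in the 60 dpi cells, and B cell genes to 693 and 1964 CPM. The cells with both C1q and Cd79 numbered 39 at 7 dpi and 79 at 60 dpi, with Selplg at 681 and 365.5 CPM and Fcrls at 308 and 159.5 CPM.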
